A study of Mus musculus with 2 samples.

Results

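A set of 10 genes of the axon guidance families was followed across single cells of the amputated mouse digit: the class 3 semaphorins *Sema3a*, *Sema3c*, *Sema3d* and *Sema3e*, the netrin *Ntn1*, its repulsive receptor *Unc5c*, the Slit ligands *Slit2* and *Slit3*, and the Slit receptors *Robo1* and *Robo2*. They were taken by symbol, and all 10 of 10 were found among the 33696 genes listed for both libraries and had UMIs (unique molecular identifiers, each counting 1 captured transcript) in both. The study asked whether FGF8, a fibroblast growth factor, can bring about regrowth of several tissues at an amputation that does not regenerate by itself. Hindlimb digits 2 and 4 of ICR mice, an outbred strain, were amputated through the middle phalanx (P2) at postnatal day 3, and an agarose bead carrying either FGF8 at 500 ng/µl or 0.1% bovine serum albumin (BSA) in buffer was placed at the stump at postnatal day 7. Cells distal to the stump were collected 24 h later, at postnatal day 8, after the epithelium had been taken off, so both groups share the amputation, the bead and the removal of epithelium. Each group is 1 library made from 20 pooled digits of 5 mice of both sexes, and the FGF8 pool could not be restricted to digits that would have regenerated.

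Axon guidance molecules were first known for steering growing nerve fibres. Class 3 semaphorins are secreted, and most act through a neuropilin that binds them and a plexin that signals, while *Sema3e* binds the plexin *Plxnd1* directly, netrin attracts through *Dcc* or neogenin and repels through Unc5 receptors, and the large secreted Slit proteins repel through Robo receptors. All of these families also act outside the nervous system, in vessel branching, bone and cartilage growth and the migration of mesenchymal cells, and connective tissue fibroblasts are a known source of several ligands.

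With 1 library per group no test across samples exists, so no p-value is given and every interval covers counting error only. The BSA library held 3703 barcodes and 67739460 UMIs, of which 3252 cells were kept. The FGF8 library held 7249 barcodes and 124889213 UMIs, of which 6715 were kept, and the median kept cell had 15377 UMIs in the BSA and 12251 in the FGF8 library. The pools differed in sex: 79.3% of cells whose sex could be called were female in the BSA library and 24.6% in the FGF8 library, so each comparison was also made within female-called and male-called cells. The libraries shared 6 barcodes, 4 of them in kept cells. All 9 fibroblast markers were detected in the fibroblast-like cells of both libraries, but their summed level was 44660 CPM (their UMIs as counts per 1000000 UMIs of these cells) in the BSA and 24253 CPM in the FGF8 library and none of the 9 was higher in the latter; their part in the comparisons below was not tested. No cluster was neuron-like. All 6 neuronal markers had UMIs in both libraries, from 5 (BSA) and 6 (FGF8) in all kept cells for the synaptic gene *Snap25* to 271 and 640 for the tubulin gene *Tubb3*, which came to 4.98 and 6.20 CPM. The 6 together stood at 10.6 CPM in the BSA and 15.3 CPM in the FGF8 fibroblast-like cells, and their part in the results was not tested.

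Of the 10 genes, 5 lie on chromosome 5 and a pair lies side by side on chromosome 16 (GRCm39, GENCODE vM39). *Sema3d* (chr5:12433124-12638929), *Sema3a* (chr5:13175288-13653578) and *Sema3e* (chr5:14075290-14306719) follow one another on the plus strand, with *Sema3c* (chr5:17779219-17935648) and *Slit2* (chr5:48140480-48465075) further along. *Robo1* (chr16:72105194-72844378, plus strand) and *Robo2* (chr16:73688727-75244270, minus strand) neighbour each other, *Slit3* (chr11:35011789-35602786) and *Ntn1* (chr11:68100190-68291662) share chromosome 11, and *Unc5c* lies at chr3:141170977-141540685.

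The 250 bases before the annotated start of the canonical transcript were searched on both strands for CCGGAAG, a core bound by ETS factors, and TGANTCA, where N is any base. The latter takes in the AP-1 site TGA(C/G)TCA but is looser. ETS factors and AP-1 are nuclear targets of FGF receptor signalling. No window of the 10 genes held CCGGAAG and 1 of 10, that of *Sema3c*, held TGANTCA, against 6.82% and 6.17% of 21431 windows of protein-coding genes. The *Sema3c* match is TGATTCA, whose middle base is neither C nor G. A match is a string of letters and not a shown site. The windows of *Ntn1* (chr11:68278021-68278270, minus strand) and *Robo2* (chr16:74208423-74208672, minus strand), the pair with the largest difference between libraries in fibroblast-like cells, and of *Sema3c* (chr5:17778969-17779218, plus strand), with its single TGANTCA match in capitals, read as follows in GRCm39.
Ntn1: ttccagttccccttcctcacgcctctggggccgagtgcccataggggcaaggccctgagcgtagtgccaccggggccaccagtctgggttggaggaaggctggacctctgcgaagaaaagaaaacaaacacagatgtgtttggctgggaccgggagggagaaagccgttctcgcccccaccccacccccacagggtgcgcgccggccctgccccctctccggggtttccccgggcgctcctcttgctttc
Robo2: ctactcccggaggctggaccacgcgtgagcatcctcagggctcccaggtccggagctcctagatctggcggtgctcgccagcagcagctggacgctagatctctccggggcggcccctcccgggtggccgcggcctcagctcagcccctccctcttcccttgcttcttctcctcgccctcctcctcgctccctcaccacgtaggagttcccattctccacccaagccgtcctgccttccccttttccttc
Sema3c: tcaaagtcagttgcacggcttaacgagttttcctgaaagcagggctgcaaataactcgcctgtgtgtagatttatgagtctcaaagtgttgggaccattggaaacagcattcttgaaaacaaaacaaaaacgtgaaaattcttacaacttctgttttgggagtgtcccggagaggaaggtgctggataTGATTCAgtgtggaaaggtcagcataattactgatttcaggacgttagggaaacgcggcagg

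Transcripts of 9 of the 10 genes came mostly from fibroblast-like cells, the largest cell type with 1517 cells in the BSA and 2904 in the FGF8 library. These cells held 94.0% of all *Sema3a* UMIs of the BSA library and 89.1% of those of the FGF8 library. For *Ntn1* the shares were 91.2% and 86.1%, and for *Robo2* 91.3% and 83.8%. *Sema3e* was the exception, with 36.8% and 52.1% of its UMIs in fibroblast-like cells. Erythroid-like cells, which should lack these genes, gave the background of free RNA: *Robo2* had a UMI in 77.5% (BSA) and 61.2% (FGF8) of fibroblast-like cells, at median depths of 21784 and 20594 UMIs, and in 12.0% and 6.70% of erythroid-like cells, at 18691 and 6970.5 UMIs. *Sema3a* had a UMI in 47.6% and 43.6% of fibroblast-like and in 4.82% and 4.90% of erythroid-like cells. As counts per 1000000 UMIs the erythroid-like background was higher in the FGF8 library for most of the genes. It was 12.4 (BSA) and 25.0 CPM (FGF8) for *Robo2* and 2.75 and 9.98 CPM for *Sema3a*. For *Sema3c*, *Sema3e* and *Robo1* it was lower in the FGF8 library. Its part in the comparisons below was not tested.

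**Figure D1:**
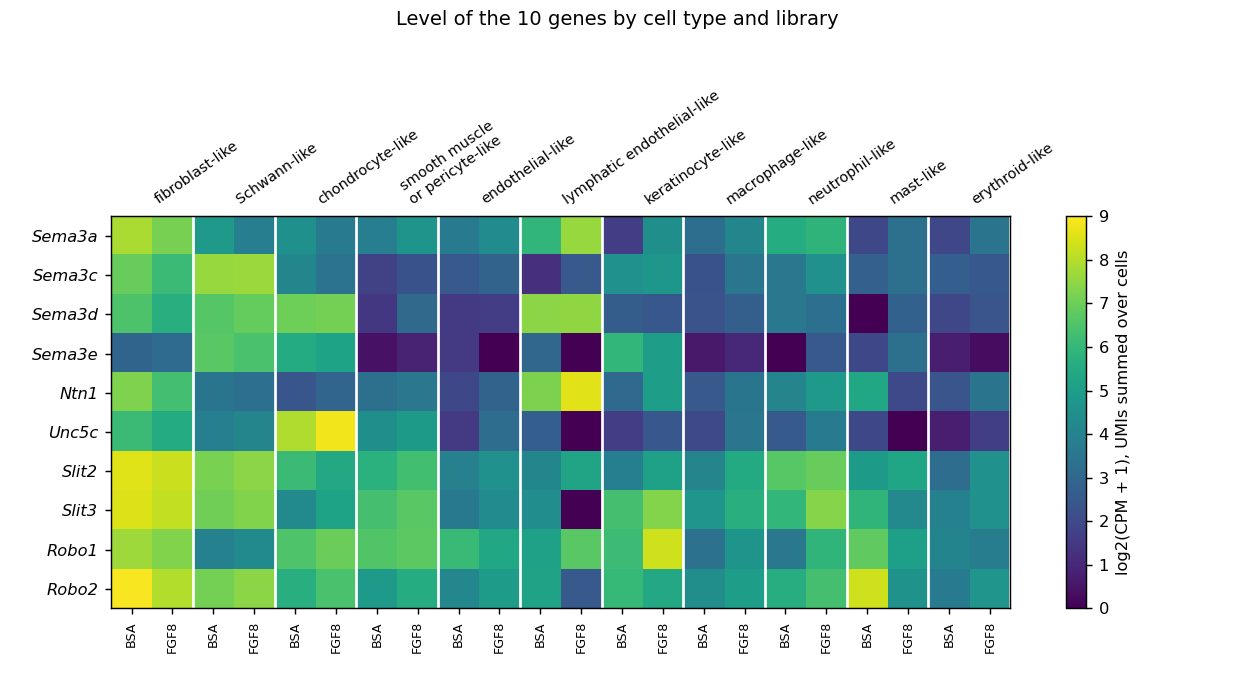
Level of each gene as log2(CPM + 1), from UMIs summed over the cells of 11 named cell types (columns, BSA and FGF8 library side by side). Fibroblast-like cells are high for all genes but *Sema3e*, and *Unc5c* reaches 241.6 and 451.4 CPM in chondrocyte-like cells; lymphatic endothelial-like cells of the FGF8 library number 11.

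Since fibroblast markers were found at lower levels in the other named types, a level outside fibroblast-like cells was read as above background where the gene, as a percentage of its fibroblast-like level, exceeded 2 times the same percentage for the 9 fibroblast markers in both libraries and had at least 100 UMIs. This held for 15 of 100 pairs of a gene and another named cell type. The level of *Sema3a*, the best known axon repellent of the class, passed in no other type, and neither did that of *Robo2*, though both came close. *Robo2* stood at 1.996 (BSA) and 2.77 (FGF8) times the marker percentage in Schwann-like cells, with 851 UMIs, and *Sema3a* at 1.993 and 65.3 times in lymphatic endothelial-like cells, with 86 UMIs. In Schwann-like cells, the glia that ensheath peripheral nerve, 5 genes passed. *Sema3c* stood at 194.8 CPM in the BSA and 199.3 CPM in the FGF8 library, above its own fibroblast-like level in both, and 75.0% and 71.8% of Schwann-like cells had a UMI. *Sema3e* stood there at 104.0 and 84.2 CPM and *Sema3d* at 97.4 and 116.7 CPM, both above their fibroblast-like levels. *Slit2* (143.5 and 173.9 CPM) and *Slit3* (132.2 and 157.8 CPM) were lower in Schwann-like than in fibroblast-like cells and passed narrowly, at 2.24 and 2.23 times the marker percentage in the FGF8 library.

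Cartilage, vessel and epithelial types each held a different subset. In chondrocyte-like cells *Unc5c* stood at 241.6 and 451.4 CPM, *Sema3d* at 127.2 and 136.9 CPM and *Sema3e* at 45.3 and 36.0 CPM. In lymphatic endothelial-like cells, of which the BSA library had 48 and the FGF8 library 11, *Sema3d* stood at 172.0 and 181.9 CPM and *Ntn1* at 148.8 and 387.1 CPM. *Robo1*, which also guides the growth of vessels, passed in endothelial-like (65.4 and 41.5 CPM), smooth muscle or pericyte-like (92.3 and 105.7 CPM) and keratinocyte-like cells (71.0 and 324.5 CPM), and it was at 447.1 and 396.8 CPM in an unnamed cluster led by *Prr9* and *Krt73*, genes of the hair follicle root sheath. Keratinocyte-like cells also held *Sema3e* (61.5 and 30.9 CPM) and *Slit3* (80.6 and 159.3 CPM). The keratinocyte-like values rest on few cells: all *Sema3e* and *Slit3* UMIs of the BSA library came from 9 and 7 of its 123 cells.

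**Figure D2:**
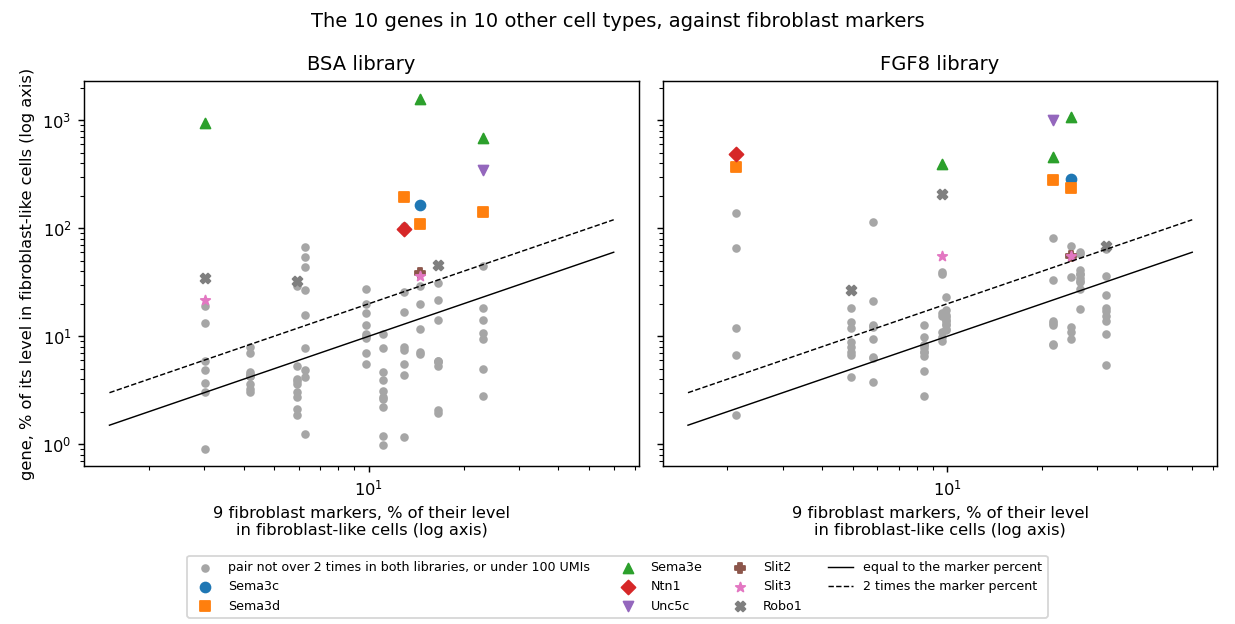
Each point is 1 gene in 1 of 10 named cell types other than fibroblast-like, its level as a percentage of its fibroblast-like level (log axis) against the same percentage for the summed 9 fibroblast markers (log axis), by library. Coloured symbols are the 15 pairs above the dashed line in both libraries with at least 100 UMIs, among them *Sema3e* at 1591% in Schwann-like cells of the BSA library, and pairs at 0 are not drawn.

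In fibroblast-like cells, all 10 genes but *Sema3e* were lower in the FGF8 than in the BSA library. Of all 19912 genes counted there, those with at least 10 UMIs, 56.8% were lower and 43.2% were higher, and the median log2 ratio of FGF8 over BSA was -0.67 over the 10 genes and -0.08 over all. None of the 10 passed 2-fold in either direction, against 6.21% of all genes above a log2 ratio of 1 and 5.42% below -1.

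Among the ligands, *Ntn1* stood at 151.9 CPM in the BSA and 79.1 CPM in the FGF8 library, a log2 ratio of -0.94 with a 95% counting interval of -0.996 to -0.886. *Sema3d* went from 89.0 CPM to 49.2 CPM (log2 ratio -0.86), *Sema3c* from 117.8 to 70.1 CPM (-0.75) and *Sema3a* from 233.3 to 140.6 CPM (-0.73). The Slits differed less, *Slit2* standing at 373.0 CPM in the BSA and 313.4 CPM in the FGF8 library (-0.25) and *Slit3* at 369.7 and 286.0 CPM (-0.37). *Sema3e* had the lowest level of the 10 in these cells, at 6.53 CPM in the BSA and 7.83 CPM in the FGF8 library (0.26, interval 0.03 to 0.49), and its UMIs lay in 97 of the 1517 BSA and 204 of the 2904 FGF8 cells.

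Of the receptors, *Robo2* showed the largest difference, with 476.8 CPM in the BSA and 251.2 CPM in the FGF8 library (log2 ratio -0.92, interval -0.96 to -0.89). *Robo1*, its paralogue, stood at 203.0 and 154.7 CPM (-0.39, interval -0.44 to -0.35), and *Unc5c* at 69.3 and 45.1 CPM (-0.62, interval -0.70 to -0.54). After each cell was thinned to 2000 UMIs, *Robo2* had a UMI in 44.7% of BSA and 31.2% of FGF8 fibroblast-like cells and *Ntn1* in 26.1% and 17.2%. For *Slit2* the thinned shares were 38.4% and 37.5%, with counting intervals of 35.9% to 40.9% and 35.8% to 39.3%. The cell mix of the libraries was not held equal in these shares.

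Most of these differences shrank once the mix of subclusters of the fibroblast-like cells was held equal. Re-clustering gave 6 subclusters, made without the axon guidance genes, and subcluster 0, whose leading genes are *Prg4* (lubricin) and cell cycle genes such as *Ube2c* and *Plk1*, held 275 of the 1517 BSA and 1084 of the 2904 FGF8 cells. Its cells were also the deepest, at medians of 31356 and 34107.5 UMIs, and made up 25.4% of BSA and 54.3% of FGF8 fibroblast-like UMIs. With the same mix of subclusters in both libraries the log2 ratio was -0.34 for *Ntn1*, -0.25 for *Robo2*, -0.34 for *Sema3d*, -0.14 for *Sema3a*, -0.25 for *Unc5c*, -0.19 for *Robo1*, -0.01 for *Sema3e*, 0.02 for *Slit3* and 0.10 for *Slit2*, and 8 of the 10 genes were lower, against 51.5% of all genes. *Sema3c* kept the largest part, at -0.61. This comparison was added after the data were seen, and the values of the whole type hold both a different mix of cells and different levels within subclusters.

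**Figure D3:**
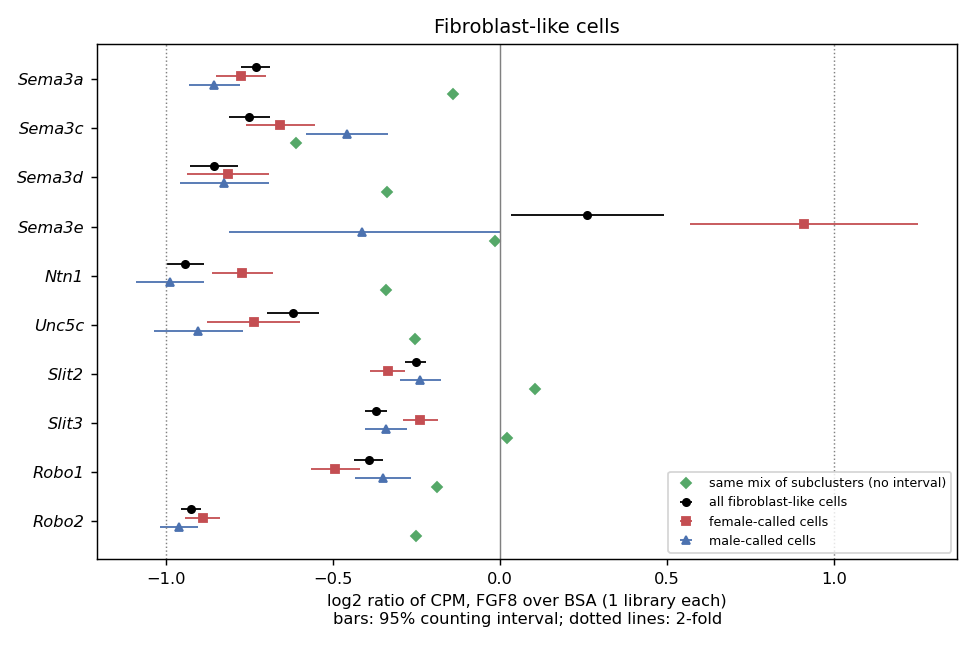
Log2 ratio of CPM in fibroblast-like cells, FGF8 over BSA, for all cells, female-called cells and male-called cells with 95% counting intervals, and for the same mix of subclusters in both libraries (diamonds, no interval). In all cells, 9 of the 10 genes lie between -1 and 0, and the diamonds lie nearer to 0 than the black points for all 10.

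The subclusters differed widely from one another. *Sema3a* stood at 702.5 CPM in the BSA and 652.1 CPM in the FGF8 library in subcluster 1, which was led by *Chodl* and *Zfp536*, and at 28.9 to 137.8 CPM in every other subcluster of the BSA library. Subcluster 1 thereby held 80.1% of the fibroblast-like *Sema3a* UMIs of the BSA and 69.9% of those of the FGF8 library, in 26.6% and 15.1% of the UMIs of these cells, and *Sema3a* was itself among the 10 leading genes although it had not been used in clustering. The same subcluster had the highest *Sema3d* level (185.5 and 144.6 CPM). It held 59.3% and 42.2% of the fibroblast-like *Unc5c* UMIs, at 154.3 and 126.4 CPM. The small subcluster 5 had a higher *Unc5c* level (191.5 and 183.5 CPM), from 65 and 87 UMIs.

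Subcluster 4, led by *Coch* and *Nrg1*, was the richest in Slit ligands and in *Robo2* together. *Robo2*, again a leading gene not used in clustering, stood there at 1741 CPM in the BSA and 1709 CPM in the FGF8 library, against 62.7 to 1309 CPM in the others. *Slit2* was at 859.2 and 851.5 CPM, *Slit3* at 901.2 and 897.1 CPM, and *Ntn1* at 411.9 and 330.5 CPM, each the highest of the 6 subclusters in both libraries. Transcripts of both Slits and of *Robo2*, ligands and their receptor, were thus highest in the same subcluster of either library. *Unc5c* was lowest there, at 9.34 and 20.8 CPM. Subcluster 5, with 23 cells in the BSA and 47 in the FGF8 library, also held much *Robo2* (1199 and 1309 CPM) and the highest *Robo1* (441.9 and 520.8 CPM).

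The other subclusters had their own pattern. Subcluster 3, led by *Lpl*, *Dlk1* and *Pi16*, held the highest *Sema3c* level (260.1 and 132.6 CPM) and much *Slit3* (590.7 and 576.6 CPM). Subcluster 2 was called tenocyte-like from 1 of 6 tenocyte markers among its leading genes, *Fmod*. At resolution 0.2 over all cells, that name went to a cluster led by *Prg4* and *Ptgis*. Subcluster 2 was low in *Robo2* (115.1 and 69.6 CPM), *Slit3* (82.2 and 99.7 CPM) and *Ntn1* (26.5 and 16.9 CPM). Subcluster 0 was low in *Sema3d* (38.7 and 18.5 CPM) and *Ntn1* (40.1 and 24.1 CPM).

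**Figure D4:**
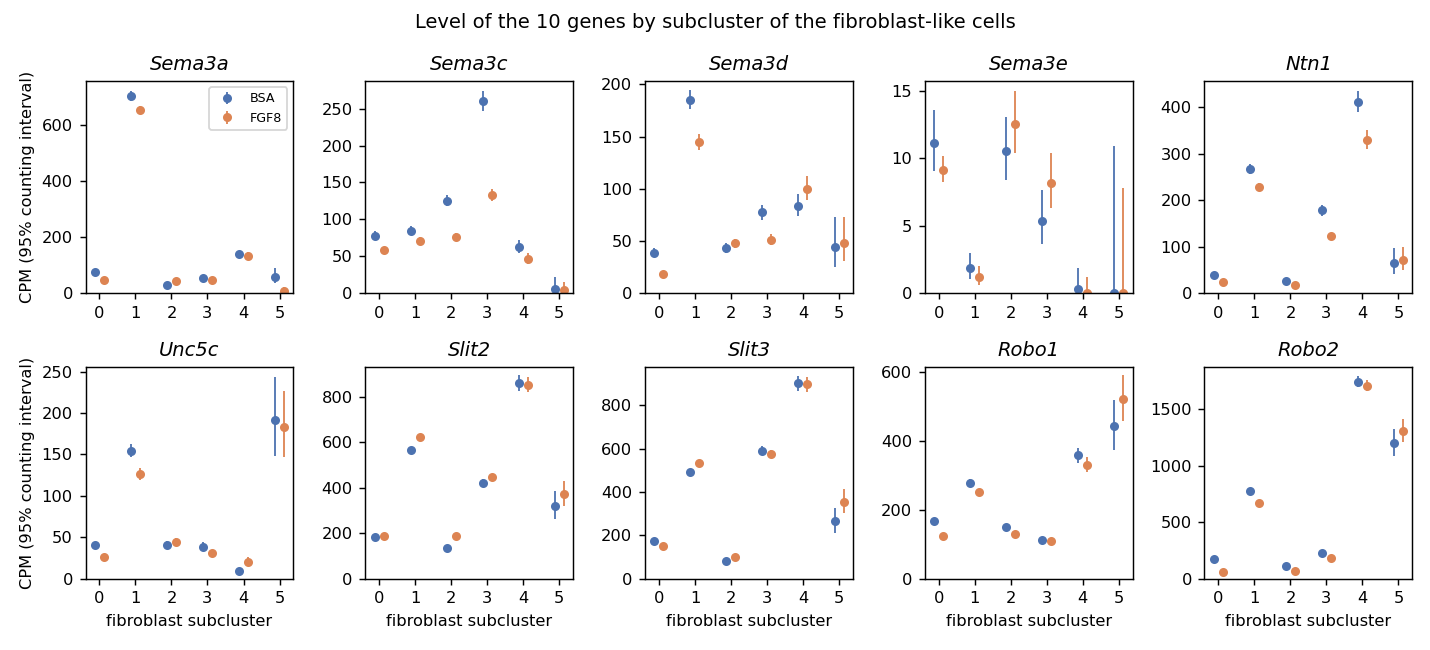
CPM of each gene in subclusters 0 to 5 of the fibroblast-like cells, BSA (blue) and FGF8 (orange), with 95% counting intervals; each panel has its own axis from 0. *Sema3a* peaks in subcluster 1, *Sema3c* in 3 and *Robo2*, *Slit2*, *Slit3* and *Ntn1* in 4, in both libraries.

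Within subclusters, the lowest log2 ratios of all 3 receptors stood in subcluster 0 and that of *Sema3c* in subcluster 3. In subcluster 0, *Robo2* went from 178.9 CPM in the BSA to 62.7 CPM in the FGF8 library, a log2 ratio of -1.51 (interval -1.60 to -1.42), and *Sema3d* from 38.7 to 18.5 CPM (-1.06, interval -1.25 to -0.87), so 2 of the 10 genes passed 2-fold downward where 9.17% of 17269 genes did. The ratio of *Robo2* there was -1.38 among female-called cells and -1.66 among male-called cells, while that of *Sema3d* was -1.89 and 0.11. In subcluster 3, *Sema3c* had a log2 ratio of -0.97 (interval -1.09 to -0.86), but -0.82 among female-called and -0.40 among male-called cells. Where *Robo2* was highest, in subcluster 4, its log2 ratio was -0.03 (interval -0.08 to 0.03), and where *Sema3a* was highest, in subcluster 1, it was -0.11 (interval -0.16 to -0.06). *Slit2*, by contrast, was higher in the FGF8 library within subcluster 1 (0.14, interval 0.08 to 0.19), also among female-called (0.26) and male-called cells (0.21). In subcluster 2 its ratio was 0.46 (interval 0.35 to 0.58), but -0.32 among female-called cells and 2.02 among male-called cells, the latter from 42 BSA UMIs. Both other ratios past 2-fold rest on few UMIs, *Unc5c* in subcluster 4 on 28 BSA and 63 FGF8 UMIs (1.16, interval 0.49 to 1.86) and *Sema3a* in subcluster 5 on 20 and 4 UMIs (-2.80, interval -4.81 to -1.23). The summed fibroblast markers moved as well, from 28666 to 13589 CPM in subcluster 0 and from 70211 to 52426 CPM in subcluster 1, and their part in these values was not tested.

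The direction over all fibroblast-like cells was the same in both sexes for 9 of the 10 genes. In female-called cells 9 of 10 were lower in the FGF8 library, where 57.7% of 17485 genes were lower, and in male-called cells 10 of 10 were, where 55.6% of 18127 genes were lower. For *Ntn1* it was -0.77 (female) against -0.99 (male). *Robo2* had -0.89 and -0.96, and *Sema3a* -0.77 and -0.85. *Sema3e* had 0.91 in female-called cells, from 140 BSA and 152 FGF8 UMIs, and -0.41 in male-called cells, from 62 and 323 UMIs.

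Outside fibroblast-like cells the genes above background took several directions. *Unc5c*, the netrin receptor, was higher in chondrocyte-like cells of the FGF8 library, with a log2 ratio of 0.90 (interval 0.74 to 1.07), 0.84 when only female-called and 0.55 when only male-called cells were counted, and 77.3% of 66 BSA and 85.2% of 142 FGF8 cells had a UMI. *Robo1* was higher in keratinocyte-like cells, by 2.19 (interval 1.83 to 2.58), but these cells had a median of 1661 UMIs in the BSA and 9262 in the FGF8 library, and 12.2% and 56.8% of them had a *Robo1* UMI. *Ntn1* was higher in lymphatic endothelial-like cells, by 1.38 (interval 0.95 to 1.80), from 109 and 83 UMIs, at 1.28 for female-called cells but -1.47 for male-called cells, of which the BSA library had 3. *Sema3c* in Schwann-like cells (0.03, interval -0.15 to 0.21) and *Sema3d* in chondrocyte-like cells (0.11, interval -0.14 to 0.35) did not differ beyond counting error, while fibroblast-like cells of the same libraries had less of both.

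Receptors of the secreted ligands were found in fibroblast-like cells and, at higher levels for several, in vessels and glia. The neuropilin *Nrp1*, the co-receptor of *Sema3a*, stood at 148.8 CPM in the BSA and 133.3 CPM in the FGF8 library in fibroblast-like cells and at 367.9 and 326.7 CPM in endothelial-like cells. *Nrp2*, a co-receptor of *Sema3c* and of lymphatic growth factors, reached 283.9 and 1040 CPM in lymphatic endothelial-like cells, from 48 and 11 cells. *Plxna4*, a signalling partner of *Sema3a*, was at 110.6 and 89.7 CPM in Schwann-like and at 29.3 and 22.4 CPM in fibroblast-like cells, and within the latter at 77.0 and 71.5 CPM in subcluster 1, the one rich in *Sema3a*. *Plxnd1*, the receptor of *Sema3e*, was at 260.7 and 266.5 CPM in endothelial-like and at 13.2 and 9.86 CPM in fibroblast-like cells. *Plxna1* (18.4 and 14.4 CPM), *Plxna2* (18.2 and 17.1 CPM) and *Plxna3* (4.61 and 3.56 CPM) were low in fibroblast-like cells. Neogenin, *Neo1*, another netrin receptor, was at 71.7 and 76.1 CPM. *Unc5b*, a netrin receptor of vessels, was at 13.5 and 22.2 CPM, a log2 ratio of 0.71 opposite in direction to that of *Unc5c*. *Dcc* was at 0.46 and 1.92 CPM in fibroblast-like cells. Of its UMIs there, 7 of 16 in the BSA and 88 of 131 in the FGF8 library lay in subcluster 5 (20.6 and 185.6 CPM). These came from few cells, 13.0% of 23 in the BSA and 19.1% of 47 in the FGF8 library. *Robo4*, the endothelial Robo, was at 0.12 CPM in fibroblast-like cells of both libraries but at 98.6 and 86.6 CPM in endothelial-like cells.

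Against the wider families, a list of 79 semaphorin, netrin, Slit, ephrin, RGM and Flrt genes with their receptors, 77 reached 10 UMIs among fibroblast-like cells. Of these, 54 were lower and 23 higher in the FGF8 library, with a median log2 ratio of -0.27, where 56.8% of all genes were lower and their median was -0.08. The 10 neuropilins and plexins counted all had a ratio below 0, from -0.87 to -0.09, over all fibroblast-like cells. The mix of subclusters was not held equal here. The interval of the last, *Plxna2*, was -0.23 to 0.05, and among male-called cells the ratio was 0.12 for *Plxna2* and 0.07 for *Plxnc1*. Within subclusters *Nrp1* took both directions. It was higher in the FGF8 library in subclusters 0 (77.3 and 95.5 CPM), 2 (50.3 and 66.6 CPM) and 3 (240.8 and 275.0 CPM). It was lower in 4 (145.1 and 93.3 CPM), in 5, from 22 and 9 UMIs, and in 1. In subcluster 1 it stood at 247.8 and 240.6 CPM, with overlapping counting intervals. Both directions occurred among the other semaphorin ligands. *Sema7a*, a membrane-anchored semaphorin, was at 3.51 CPM in the BSA and 9.57 CPM in the FGF8 library (log2 ratio 1.45) and *Sema6b* at 0.78 and 1.82 CPM (1.23), whereas *Sema3b* was at 15.1 and 5.75 CPM (-1.39). *Dcc* (2.06, from 16 and 131 UMIs) and the Eph receptor *Ephb1* (-1.73, from 86 and 51 UMIs) were the other genes past 2-fold with at least 100 UMIs. By sex, female-called cells first, the ratio was -2.67 and 2.62 for *Dcc* and -2.01 and 0.38 for *Ephb1*. These 5 make up 3 genes above and 2 below 2-fold, and at 10 UMIs the counts were 4 and 4 of 77, near the 6.21% and 5.42% of all genes.

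**Figure D5:**
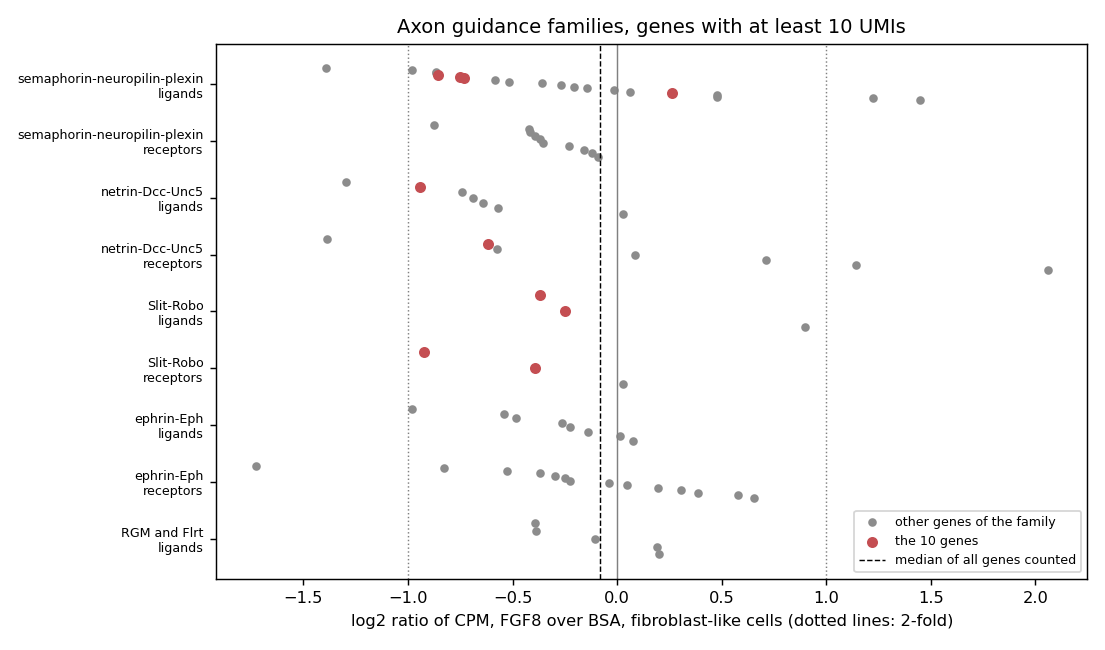
Log2 ratio of CPM in fibroblast-like cells, FGF8 over BSA, for the 77 axon guidance genes with at least 10 UMIs, by family and role. The 10 genes are in red, 9 of them left of the dashed line at the median of all genes (-0.08), and the neuropilin and plexin receptors all lie left of 0.

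The genes whose level across cell types most resembled each member were named from 9817 genes, by Pearson's r of log2(CPM + 1) over 32 points, each a cell type or fibroblast subcluster of 1 library. The points share libraries and fibroblast RNA, so r is a description. *Robo2* was most like *Frem1* (0.93), an extracellular matrix gene of the dermis, *Epha7* (0.91), an Eph receptor, and *Tmem132c* (0.90). *Slit2* was most like *Cdh11* (0.91), the mesenchymal cadherin, *Zfp651* (0.91) and the dermal transcription factor *Twist2* (0.91), and *Slit3* like *Rab30* (0.91), *Arhgap24* (0.90) and *Adamtsl5* (0.90). *Sema3a* was most like the matrix gene *Hmcn1* (0.85), *Csrnp3* (0.79) and *Ptx3* (0.78), and *Ntn1* like *Ripor3* (0.89), again *Hmcn1* (0.89) and *Megf6* (0.87). For *Unc5c* the closest were *Sdk2* (0.90), *Il17d* (0.87) and *Tceal3* (0.87). For *Robo1* they were *Setbp1* (0.89), *Ltbp1* (0.86), which binds latent TGF-β, and the Hedgehog transducer *Smo* (0.85). *Sema3c* lay closest to the Wnt receptor *Fzd1* (0.85), *Ank3* (0.84) and *Sdk1* (0.84), *Sema3d* to the natriuretic peptide receptor *Npr2* (0.86), *Armh4* (0.83) and tenascin C, *Tnc* (0.83), and *Sema3e* to *Moxd1* (0.83), *Itgb8* (0.81) and *Dbi* (0.79). Among the members, *Robo2* with *Slit3* (0.85) and with *Slit2* (0.83) were more alike than *Robo1* with *Robo2* (0.65), and *Sema3e* was the least like *Ntn1* (-0.30).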

How the data were processed

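The authors captured cells with 10x Genomics 3′ chemistry (v3.1) and deposited unnormalised UMI counts for each gene in each barcode, made by Cell Ranger 9.0.0 on a GRCm39 reference per the study's methods; the labels also list mm10. The study's limits on cells were applied (over 200 and under 7500 genes found, mitochondrial UMIs below 15%); the deposited counts had not been filtered so. Clustering followed the study (Seurat 5.3.0, sctransform 0.4.2, R 4.3.3; SCTransform, CCA integration, 30 principal components, resolution 0.05, seed 42), but the 79 axon guidance genes were left out of the variable features, which left 2965 of 3000. A cluster left unnamed was re-clustered at 0.2, and so were the fibroblast-like cells, the latter also without X- and Y-linked genes (2856 features).

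A cluster was called X-like for the marker list with most markers among its 10 genes of largest fold found in at least 50% of its cells, with at least 3 markers in at least 10% of cells. This replaced a first rule, the highest mean fold, which left the largest cluster unnamed, so the naming was chosen after seeing the data and cell types may differ from the study's. The members, gene lists and alternatives were chosen with earlier results of these data known. Genes named are the 10 members, their direct partners, other family genes with at least 100 UMIs past 2-fold, and the 3 genes most like each member among those with at least 500 UMIs in each library. The rule of 2 times the fibroblast marker percentage was set after seeing the data.

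For every cell type the UMIs of a library were added up, turned into CPM (per 1000000 UMIs) and compared as log2 ratios in Python 3.11.15 (numpy 2.4.6, scipy 1.17.1, pandas 2.3.3; figures by matplotlib 3.10.9). Levels carry exact Poisson, shares exact Clopper-Pearson and ratios exact conditional binomial 95% intervals. These cover counting error only, and a library at 0 would enter at 3 counts. Thinned shares use cells drawn down to 2000 UMIs, leaving out 6 BSA and 1 FGF8 fibroblast-like cells. Female-called cells have *Xist* and no Y-linked UMI, male-called cells the opposite. Doublets: Scrublet (scanpy 1.11.5) called 0% of either library and had thus not worked, so no cell was removed except in an alternative. Cells are not replicates, so no test was run; the ratio code was tested on simulated counts. The marker lists cover fibroblasts, tenocytes, osteoblasts, chondrocytes, vessel and lymphatic endothelium, smooth muscle or pericytes, Schwann cells, blood cells, keratinocytes, neurons, muscle and melanocytes. Promoter windows and positions come from GRCm39 with GENCODE vM39.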

Additional observations from a re-analysis of the deposited data

Results flagged for a closer look

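Opposite directions between libraries in 2 cell groups, each with a counting interval on its own side of 0, were found for 10 contrasts; with 1 library per condition these differences were not tested, and their cause was not tested. *Unc5c* had a log2 ratio, FGF8 over BSA, of 0.90 in chondrocyte-like and -0.62 in fibroblast-like cells, a difference of 1.52 that kept its signs in female-called and male-called cells. *Ntn1* had 1.38 in lymphatic endothelial-like and -0.94 in fibroblast-like cells, a difference of 2.32, with 11 lymphatic endothelial-like cells in the FGF8 library and -1.47 in the male-called ones. *Robo1* had 2.19 in keratinocyte-like and -0.66 in endothelial-like cells, a difference of 2.85. The keratinocyte-like cells had median depths of 1661 (BSA) and 9262 UMIs (FGF8). The endothelial-like value turned positive under a stricter cell filter (over 500 and under 6000 genes, mitochondrial UMIs below 10%). *Slit3* had 0.98 in keratinocyte-like and -0.37 in fibroblast-like cells, a difference of 1.35, but -1.21 in the keratinocyte-like cells called female. *Sema3e* had 0.26 in fibroblast-like and -0.99 in keratinocyte-like cells, a difference of 1.25, but -0.41 in male-called fibroblast-like cells. In Schwann-like against fibroblast-like cells *Sema3d* had 0.26 and -0.86, a difference of 1.12, and *Slit2* had 0.28 and -0.25, a difference of 0.53; the Schwann-like *Slit2* value was -0.21 among female-called and -0.034 among male-called cells.

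Among the subclusters of the fibroblast-like cells, *Sema3a* had 0.57 in the tenocyte-like subcluster 2 and -0.70 in subcluster 0, a difference of 1.27. Its subcluster 2 value was 1.47 among female-called and 0.19 (interval -0.40 to 0.83) among male-called cells. Its subcluster 0 value turned positive under the stricter cell filter. *Slit3* had 0.28 and -0.20 in the same subclusters, a difference of 0.48, and its subcluster 2 value turned negative under that filter. *Sema3d* had 0.26 in subcluster 4 and -1.06 in subcluster 0, a difference of 1.32, with signs turned in male-called cells (-0.54 and 0.11).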

How the results depend on the processing

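No paired analysis was possible because each condition is 1 library. At resolution 0.2 no cluster was named fibroblast-like, so that alternative gave no value there. The count of members past 2-fold in fibroblast-like cells stayed at 0 under each alternative that gave a value, and 8 of 77 family genes became 5 with types called per cell, 15 in male-called cells, 5 among genes with at least 100 UMIs, 2 with the same mix of subclusters and 5 without subcluster 0. Of the log2 ratios in fibroblast-like cells, *Sema3e* turned to -0.13 with types called per cell, -0.87 thinned to 2000 UMIs, -0.41 in male-called cells and -0.014 with the same mix. *Slit2* turned to 0.10 with the same mix and 0.084 without subcluster 0, and *Slit3* to 0.023 and 0.028. The other 7 stayed below 0, *Robo2* between -0.96 and -0.25, *Ntn1* between -0.99 and -0.34 and *Sema3a* between -0.85 and -0.14. The cause of these changes was not tested.

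In other types, *Slit3* in Schwann-like cells turned to -0.15 under the stricter cell filter and -0.13 thinned to 2000 UMIs, *Slit2* there to -0.21 among female-called and -0.034 among male-called cells and *Sema3d* there to -0.023 with types called per cell. *Ntn1* in lymphatic endothelial-like cells turned to -0.36 with types called per cell and -1.47 in male-called cells, *Robo1* in endothelial-like cells to 0.17 under the stricter filter, and in keratinocyte-like cells *Slit3* to -1.21 in female-called cells and *Sema3e* to 0.30 with each cell weighted equally. In the subclusters, the stricter filter gave 0.14 for *Sema3a* in 0 and -0.094 for *Slit3* in 2. Thinning to 5000 UMIs gave -0.082 for *Slit2* in 3 and -0.34 for *Sema3d* in 4. Female-called cells gave 0.041 for *Sema3a* and 0.21 for *Ntn1* in 1, -0.32 for *Slit2* in 2 and -0.039 for *Slit2* in 3, and male-called cells 0.17 for *Sema3c* and 0.11 for *Sema3d* in 0 and -0.54 for *Sema3d* in 4. Over all alternatives, 367 recomputed ratios stayed inside the counting interval of the reported value, 274 moved outside it, and 29 turned a ratio whose interval excluded 0. For the fibroblast-like cells alone these counts were 38, 84 and 8. At other resolutions the fibroblast-like cells fell into 2 (0.1) and 6 (0.3) subclusters.

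Depth limits the rarer types and genes, such as the 11 lymphatic endothelial-like cells of the FGF8 library and *Robo4* in fibroblast-like cells, with 4 BSA and 8 FGF8 UMIs.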

Other observations

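*Robo2* in mast-like cells came to 322.5 CPM in the BSA library and 23.9 CPM in the FGF8 library, a log2 ratio of -3.75, but all of the 112 BSA UMIs lay in 7 of 41 cells. This pair did not pass the marker rule and was chosen after its values were seen.

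A cluster of 158 BSA and 352 FGF8 cells led by *Lars2* and *Camk1d*, with median depths of 2953 and 2598 UMIs, stayed unnamed but carried fibroblast markers at 105% and 117% of the level in fibroblast-like cells. The guidance genes were high in it, *Slit3* at 1021 and 983.3 CPM, *Robo2* at 901.1 and 966.2 CPM and *Slit2* at 806.9 and 897.0 CPM. *Sema3a* was at 308.6 and 380.0 CPM there, so it was higher in the FGF8 library by 0.30 on the log2 scale (interval 0.08 to 0.53), and *Sema3c* was at 278.6 and 158.3 CPM, a log2 ratio of -0.82. Its cells were not used in the fibroblast-like comparison.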
